A study of Mus musculus with 8 samples.

Results

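Transcripts of 10 heat shock genes were followed in muscle stem cells (MuSCs) of mice fed a vitamin A-free (VA-free) or a control diet. The genes were chosen by symbol and not by their values: Hspa1a, Hspa1b, Hspa8, Hspa5, Dnajb1, Hsp90aa1, Hsp90ab1, Hspd1, Hspe1 and Hspb1. All 10 were among the 17997 genes that passed the expression filter, of 36047 genes with a transcript in the deposited tables. Animals were male Pax7-nTnG mice (Pax7CreERT2-Rosa26 nTnG), 5 to 6 months old, of which 3 received the VA-free diet for 8 weeks and 2 stayed on normal chow. All of them received tamoxifen, so that the Pax7-driven CreERT2 switched the reporter from nuclear tdTomato to nuclear GFP in MuSCs and in whatever descended from them. Nuclear GFP-positive cells of gastrocnemius and quadriceps were sorted after enzymatic digestion at 37 °C, and RNA of each mouse was split over spin columns into technical replicates A and B. Control mice 1 and 2 and VA-free mouse 3 each gave libraries A and B. VA-free mouse 1 gave only B and VA-free mouse 2 only A, which makes 8 libraries. The mouse was the unit of every test, except in an alternative fit that took the 8 libraries as separate samples.

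Heat shock proteins are molecular chaperones: they bind unfolded or partly folded proteins, prevent their aggregation and help them fold, assemble, cross membranes or reach the degradation machinery. HSP70 proteins cycle between ATP-bound and ADP-bound states under the control of J-domain proteins and nucleotide exchange factors, and pass a subset of clients on to HSP90. HSP60 with its lid HSP10 folds proteins inside mitochondria, and small heat shock proteins hold unfolded proteins without using ATP. A part of the family is made in all cells at all times, whereas the inducible part is switched on within minutes by heat shock factor 1 (HSF1), for example by heat, oxidants or tissue dissociation, and the endoplasmic reticulum (ER) chaperones answer to a separate pathway, the unfolded protein response.

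Upstream sequences are shown because Hspa1a and Hspa1b, and Hspd1 and Hspe1, share much of theirs. RefSeq promoters (GRCm38.p6) were matched for 7 of the 10 genes, all but Hspa8, Hsp90aa1 and Hsp90ab1. The 250 bases before each start were searched on both strands for the heat shock element, the HSF1 binding unit, as a head-to-head pair (GAANNTTC), as a tail-to-tail pair (TTCNNGAA) or as 3 alternating units (GAANNTTCNNGAA or TTCNNGAANNTTC, which contain the pairs), and for the ER stress response element (ERSE). The stretches are written 5′ to 3′ on the strand of the gene, matches are in capitals, and bases inside annotated exons were left out except for a site of 30 bases.
Hspa1a, chr17:34972157-34972406, minus strand: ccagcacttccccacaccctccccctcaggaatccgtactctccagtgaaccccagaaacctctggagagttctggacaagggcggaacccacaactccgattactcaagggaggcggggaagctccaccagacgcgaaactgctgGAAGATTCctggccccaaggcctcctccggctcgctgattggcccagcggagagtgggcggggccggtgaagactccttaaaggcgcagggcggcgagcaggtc
Hspa1b, chr17:34959239-34959488, minus strand: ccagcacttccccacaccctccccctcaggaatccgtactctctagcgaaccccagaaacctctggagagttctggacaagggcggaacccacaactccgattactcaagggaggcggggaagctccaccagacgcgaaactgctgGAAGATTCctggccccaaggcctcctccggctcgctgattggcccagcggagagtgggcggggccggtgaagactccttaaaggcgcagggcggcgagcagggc
Hspb1, chr5:135887669-135887918, plus strand: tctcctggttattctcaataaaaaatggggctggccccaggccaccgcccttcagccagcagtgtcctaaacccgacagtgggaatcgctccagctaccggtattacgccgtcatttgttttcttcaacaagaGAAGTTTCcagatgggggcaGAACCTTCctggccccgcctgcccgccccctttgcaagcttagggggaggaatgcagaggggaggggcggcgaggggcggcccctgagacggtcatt
Hspe1, chr1:55088053-55088082, plus strand: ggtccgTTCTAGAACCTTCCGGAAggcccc
Hspd1, chr1:55088053-55088082, minus strand: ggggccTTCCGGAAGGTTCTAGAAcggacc
Hspa5, chr2:34772020-34772049, plus strand: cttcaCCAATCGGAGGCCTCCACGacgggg

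The Hspa1a and Hspa1b windows differed at 3 of 250 positions and held a head-to-head pair at the same place, 104 to 97 bases before the start. Hspb1 held 2 such pairs. Hspe1 and Hspd1 lie head to head, and their stretches are the same 30 bases read from either strand, with a run of heat shock units 89 to 72 bases before the Hspe1 start. This stretch lies within the annotated span of Hspd1, which reaches 55088243. Another Hspd1 window, 55088244 to 55088493, held none of the searched elements. Hspa5 held an ERSE 65 to 47 bases before its start, and none of the searched elements was found in the windows of Dnajb1. Over all 32851 RefSeq windows the head-to-head pair was present in 6.69%, the tail-to-tail pair in 7.17%, 3 alternating units in 0.466% and the ERSE in 0.113%. These matches describe the letters only.

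Measured per transcript length, as TPM (counts divided by transcript length and scaled to the same total in each library), the constitutive genes stood highest. Hspa8 averaged 6634 ± 192 TPM (SD, n = 3) in VA-free mice and 5485 ± 240 (SD, n = 2) in control mice, between rank 5 and rank 16 of all genes in every library. Hspa5 followed with 2504 ± 174 and 2046 ± 113 TPM, and Hsp90ab1 with 1828 ± 195 and 1510 ± 414 TPM. Hspa1a (923 ± 294 and 343 ± 165 TPM), Hsp90aa1 (858 ± 82.5 and 945 ± 19.2 TPM) and Hspa1b (702 ± 296 and 223 ± 109 TPM) formed a middle group in which neighbours were within their spread on the VA-free diet. The TPM of the HSP90 genes rest on the estimated transcript shares given below, and so does their place in this order. Scaled to library size alone (CPM), Hsp90aa1 averaged 530 and 718 in VA-free and control mice, and Hspa1a 1483 and 752. Hspb1 (354 ± 56.1 TPM) and Dnajb1 (281 ± 5.26 TPM) were below these on the VA-free diet, but in control mice Hspb1 (577 ± 314 TPM) averaged above Hspa1a and Hspa1b and Dnajb1 (268 ± 15.8 TPM) above Hspa1b. Hspd1 (167 ± 5.18 and 116 ± 0.559 TPM) and Hspe1 (98.6 ± 6.59 and 131 ± 8.36 TPM) had the lowest means on both diets. The 10 genes together took 1.36% to 1.56% of all TPM in the VA-free libraries and 1.08% to 1.22% in the control libraries. On this scale the median of all genes was higher on the VA-free diet too. Its log2 fold change was 0.192 or 0.354, depending on the constant added to TPM before taking logs.

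Between the diets, 4 of the 10 genes passed the threshold (edgeR quasi-likelihood test, Benjamini-Hochberg adjusted p under 0.05 over all genes), and all 4 were lower on the VA-free diet: Hspb1, Hspe1, Hsp90aa1 and Dnajb1. This balance depended on the scaling: on the TPM scale 3 were higher (Hspa1a, Hspa1b and Hspd1) and 1 lower (Hspe1), and with the trend of fold change on gene length removed 2 were higher (Hsp90ab1 and Hspd1) and 1 lower (Dnajb1). DESeq2 called 1 higher (Hspa1a) and the same 4 lower. The background was broad, since 41.4% of all genes passed (18.9% were higher and 22.5% lower under the VA-free diet), so a share of 40.0% for the heat shock genes was near it. The median log2 fold change of the 10 genes was -0.20, beside 0.00 over all genes. Values of the mice did not overlap between the diets for 7 of the 10 genes, against 63.3% of all genes. Values of single libraries did not overlap for 4 of the 10 genes, against 41.3% of all genes, so the share was near that of all genes.

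**Figure D1:**
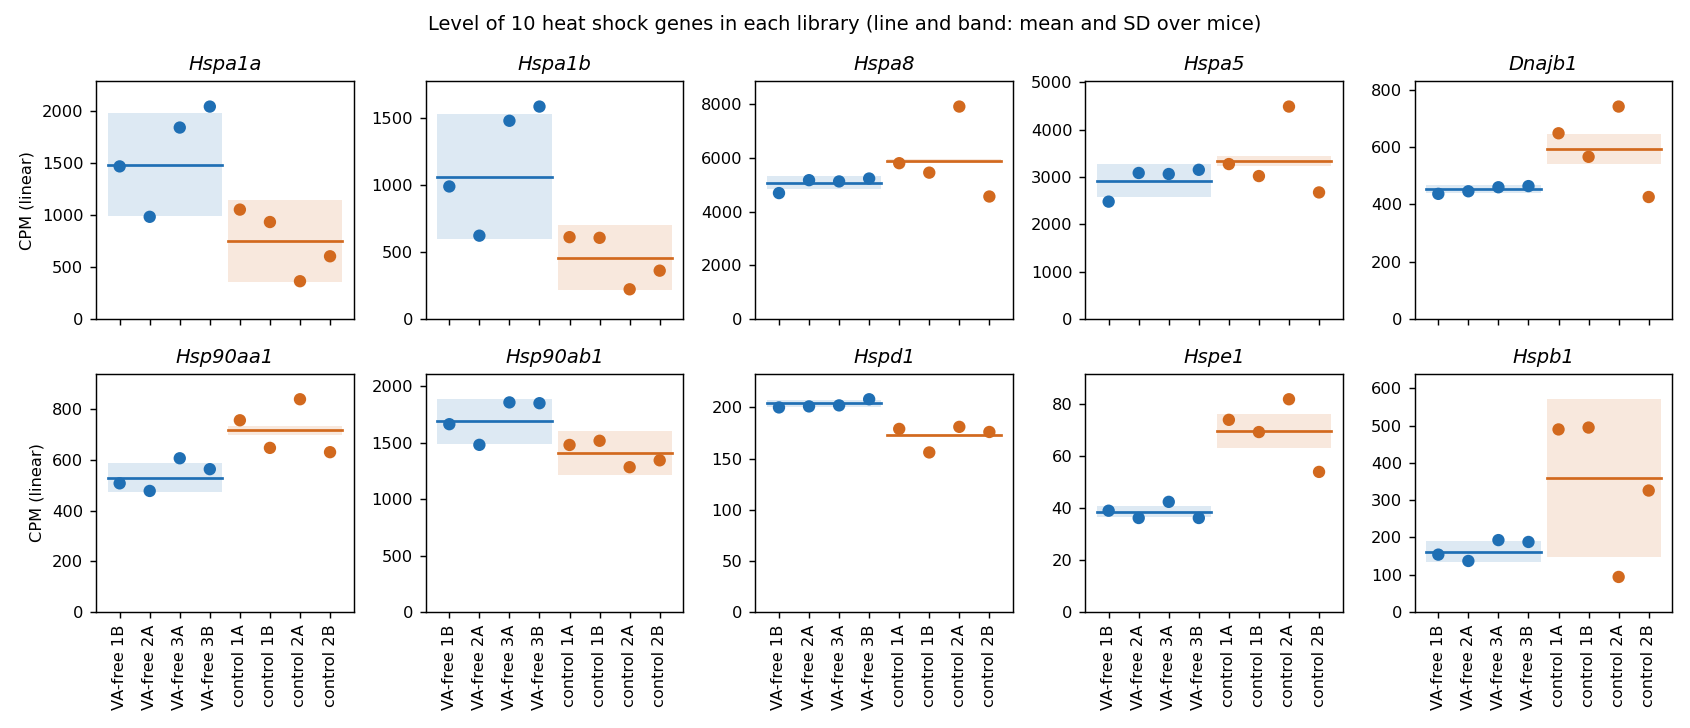
Level of each heat shock gene in CPM (counts scaled to library size, linear axis from 0) in the 4 VA-free (blue) and 4 control (orange) libraries; lines and bands give the mean and SD over the mice of a diet. Library control 2A stands high for Hspa8, Hspa5, Dnajb1 and Hspe1 and low for Hspa1a, Hspa1b and Hspb1, while the VA-free libraries of Dnajb1, Hspd1 and Hspe1 lie close together.

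Limits of these libraries bear on every value that follows. Depth was between 44831232 and 88650428 estimated counts per library, so counting error was small for all 10 genes. The markers of other cell types moved with the diet: all 10 endothelial markers, 8 of 9 Schwann cell markers and 7 of 8 tenocyte markers were lower on the VA-free diet, with summed levels of 240 to 322 CPM on the VA-free diet and 1194 to 2815 CPM in control for the endothelial list, 483 to 508 and 1063 to 1359 CPM for the Schwann cell list, and 45.8 to 74.7 and 684 to 1214 CPM for the tenocyte list. Macrophage markers (3 of 10 lower, 23.3 to 141 and 175 to 886 CPM), myofiber markers (6 of 12 lower, 365 to 497 and 501 to 600 CPM) and pericyte and smooth muscle markers (6 of 10 lower, 1 higher, 1745 to 2034 and 2820 to 3487 CPM) were lower as well. Of the markers of fibro-adipogenic progenitors 5 of 10 were lower and 1 higher, with sums of 17308 to 19701 and 9392 to 15581 CPM. MuSC markers were higher in 9 of 10 cases (6110 to 7137 and 2395 to 4335 CPM), Pax7 among them with 151, 145 and 99.3 CPM in the VA-free mice and 79.9 and 76.2 CPM in the control mice (log2 fold change 0.76, SE 0.19, adjusted p = 0.0194, edgeR). No marker of these lists was at 0 in every library. Of 25 dissociation and immediate early genes 6 were higher and 5 lower, and their sums overlapped, 36277 to 42423 CPM on the VA-free diet and 31521 to 43807 CPM in control. In RNA of a sorted population, fewer cells of a type and less RNA per cell cannot be told apart, and the part of these markers in the results below was not tested.

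The log2 fold changes also followed gene length, with a slope of 0.357 per log2 of length over all genes, longer genes being higher on the VA-free diet. Gene length was the mean length of a gene's annotated transcripts, weighted by their estimated TPM. Removing that trend within each mouse took the slope to 0.000844 and raised the share of higher genes among those past the threshold from 45.6% to 60.3%. It also moved the median log2 fold change of all genes from 0.003 to 0.181. On the TPM scale this share was 68.7% and the median 0.192 (pseudocount 1), or 69.0% and 0.354 (pseudocount 0.1), so values on both scales are read against these shifts. Finally, the technical replicates of control mouse 2 were far apart: the root mean square of the log2 ratio of A to B over all genes was 0.87 in that mouse, 0.46 in control mouse 1 and 0.23 in VA-free mouse 3.

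**Figure D2:**
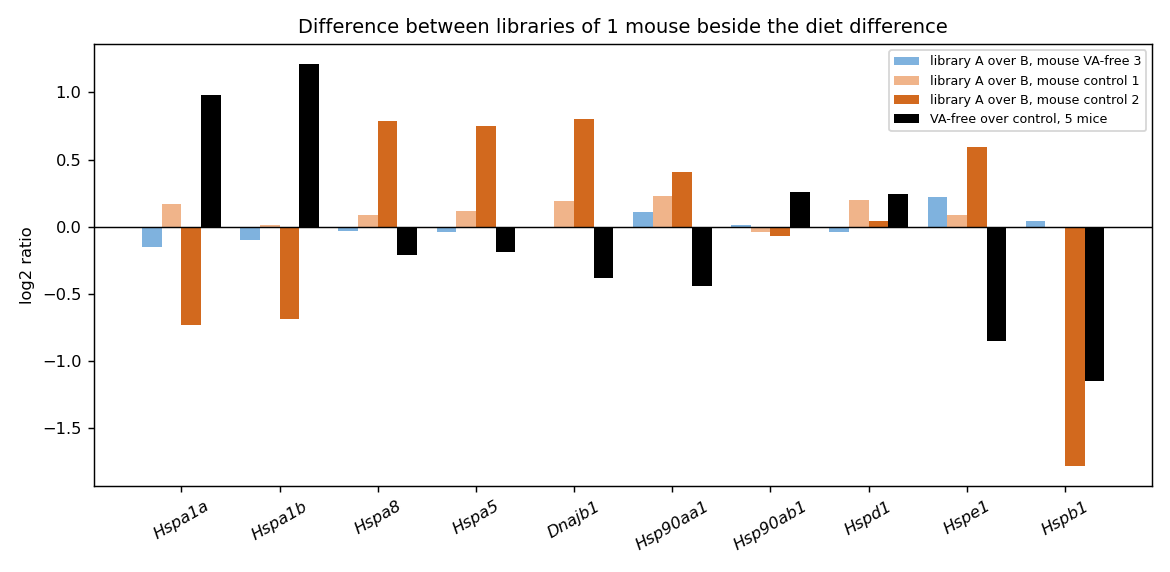
Log2 ratio of library A to library B for the 3 mice with both libraries (bars in blue and orange tones) beside the log2 fold change between the diets (black) for each heat shock gene. In control mouse 2 the gap exceeded the diet difference for 4 genes, Hspa8, Hspa5, Dnajb1 and Hspb1, whereas in the other mice the gap was at most 0.23.

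The inducible HSP70 genes had the largest values above 0. Hspa1a and Hspa1b encode near-identical stress-inducible cytosolic HSP70 proteins from neighbouring genes on chromosome 17 (GRCm38, minus strand, 34969190 to 34972156 and 34956436 to 34959238). Hspa1a was at 1498, 984 and 1967 CPM in the VA-free mice and at 1029 and 474 CPM in the control mice. VA-free mouse 2 lay below control mouse 1, so the diets overlapped. The log2 fold change was 0.98 (SE 0.39, adjusted p = 0.0872, edgeR) and did not pass. Hspa1a passed under 7 of 26 alternatives, among them DESeq2 (0.97, adjusted p = 0.0183), no expression filter (0.96, adjusted p = 0.0379) and TPM (1.46, adjusted p = 0.0174, limma). The 7 include the fit with the 8 libraries as separate samples (1.1, adjusted p = 0.0313, edgeR), in which mice are not the replicates.

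Hspa1b was at 1014, 626 and 1556 CPM in the VA-free mice and at 632 and 288 CPM in the control mice. Again VA-free mouse 2 and control mouse 1 met, although among single libraries the VA-free ones were all above the control ones (624 to 1587 against 224 to 613 CPM). The log2 fold change of 1.21 (SE 0.45, adjusted p = 0.0713, edgeR) missed the threshold. It passed with no expression filter (1.19, adjusted p = 0.0251) and on the TPM scale (1.65, adjusted p = 0.0188, limma) but not by DESeq2 (adjusted p = 0.102). Without control mouse 1 the values were 1.64 (adjusted p = 0.0190) for Hspa1a and 1.89 (adjusted p = 0.0297) for Hspa1b, and without control mouse 2 they were 0.52 (adjusted p = 0.306) and 0.75 (adjusted p = 0.263). Hspa1b also passed without VA-free mouse 2 (1.48, adjusted p = 0.0336).

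The main transcripts of Hspa1a and Hspa1b are identical at 2560 bases, 91.3% of the shorter one, and 52.7% of the 75-base windows of Hspa1a also occur in Hspa1b, so the pseudo-alignment had to divide reads between them. Added into 1 feature, they had a log2 fold change of 1.07 (adjusted p = 0.0799, edgeR). Their log2 levels ran in parallel over the 8 libraries (Pearson r = 0.99, as a description, since the libraries come from 5 mice and the genes share reads as well as the promoter letters shown above). Hspa1a also overlaps the antisense gene Gm20481 at 564 exonic bases, and the library kit does not keep the strand. Gm20481 held at most 10 estimated counts per library.

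The constitutive cytosolic HSP70, Hspa8 (HSC70; chromosome 9, plus strand, 40800984 to 40810087), had lower CPM on the VA-free diet. It was at 4795, 5180 and 5245 CPM in the VA-free mice and at 5829 and 5930 CPM in the control mice. The mice did not overlap, but the libraries of control mouse 2 were at 7901 (A) and 4561 (B) CPM, on either side of all VA-free libraries (4688 to 5229 CPM). The log2 fold change was -0.21 (SE 0.12, adjusted p = 0.201, edgeR), and it was -0.04 without library control 2A. On the TPM scale and with the length trend removed it was 0.27 (adjusted p = 0.382, limma, and 0.133, edgeR), which is 0.08 and 0.09 above the median of all genes there. Other annotated genes, most of them pseudogenes, share 78.4% of the 75-base windows of the main Hspa8 transcript, and the copy with the most counts, Gm15459, held 456 or fewer per library. The annotation also places the small nucleolar RNAs Snord14c, Snord14d and Snord14e on exonic bases of Hspa8.

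The ratio of inducible to constitutive HSP70 in TPM (Hspa1a plus Hspa1b over Hspa8) was 0.258, 0.150, 0.322 and 0.337 in the VA-free libraries and 0.144, 0.142, 0.0373 and 0.106 in the control libraries. The VA-free libraries were all above the control ones, the closest pair being VA-free 2A and control 1A. Averaged per mouse, the ratio was 0.246 ± 0.0899 (SD, n = 3) and 0.107 ± 0.0504 (SD, n = 2). An exact permutation test over the mice gave p = 0.2 (two-sided), the smallest value that 3 mice against 2 can give, here and for the other ratios below.

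Hspa5 (BiP; chromosome 2, plus strand, 34771970 to 34777547), the HSP70 of the ER and a regulator of the unfolded protein response, was at 2537, 3092 and 3150 CPM in the VA-free mice and at 3264 and 3410 CPM in the control mice. Library control 2A stood at 4485 and control 2B at 2675 CPM. The log2 fold change was -0.19 (SE 0.14, adjusted p = 0.328, edgeR), and -0.02 without control 2A. On the TPM scale it was 0.29 (adjusted p = 0.194, limma), 0.10 above the median of all genes with pseudocount 1 and 0.06 below it with 0.1. Hspa5 and Hspa8 ran in parallel over the libraries (Pearson r = 0.97 on log2 levels, description). No 75-base window of the main Hspa5 transcript occurred in another gene. Shorter shared stretches and the other Hspa5 transcripts were not searched.

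Dnajb1 (HSP40; chromosome 8, plus strand, 83608193 to 83612653) encodes the inducible J-domain partner that stimulates the ATPase of cytosolic HSP70. It was at 447, 447 and 468 CPM in the VA-free mice and at 630 and 555 CPM in the control mice. The VA-free libraries lay within 437 to 464 CPM, whereas the control libraries spread from 426 (2B) to 741 (2A) CPM. Dnajb1 was lower on the VA-free diet by the test (log2 fold change -0.38, SE 0.12, adjusted p = 0.0346, edgeR), but without library control 2A the value was -0.22 (adjusted p = 0.335) and on the TPM scale it was 0.07 (adjusted p = 0.556, limma), or -0.12 against the median of all genes. The call was also lost without VA-free mouse 1 (adjusted p = 0.113), 2 (0.117) or 3 (0.0929), without control mouse 1 (0.0742) or its library A (0.0664), and without library control 2B (0.0523), with values from -0.55 to -0.29 in these fits. In TPM, Dnajb1 over Hspa1a plus Hspa1b was 0.190 ± 0.0718 (SD, n = 3) in the VA-free mice and 0.595 ± 0.323 (SD, n = 2) in control, with library control 2A alone at 1.22 (exact permutation p = 0.2).

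The cytosolic HSP90 genes encode the inducible alpha (Hsp90aa1; chromosome 12, minus strand, 110690605 to 110702728) and the constitutive beta form (Hsp90ab1; chromosome 17, minus strand, 45567775 to 45573271) of the chaperone that matures kinases and steroid receptors. Hsp90aa1 was at 520, 479 and 592 CPM in the VA-free mice and at 731 and 705 CPM in the control mice. All 4 VA-free libraries (478 to 607 CPM) were below all 4 control libraries (631 to 840 CPM). Hsp90aa1 was lower on the VA-free diet (log2 fold change -0.44, SE 0.13, adjusted p = 0.0337, edgeR). With the length trend removed the call was lost at 0.21 (adjusted p = 0.285), which is 0.03 above the median of all genes, on the TPM scale it was -0.14 (adjusted p = 0.410, limma), and without library control 2A it was -0.36 (adjusted p = 0.0637). The length correction took Hsp90aa1 as 1134 bases long, from the estimated transcript shares given below, whereas its main transcript has 3281 bases. The TPM value rests on these shares as well. The call was also lost without VA-free mouse 1 (adjusted p = 0.108) or 2 (0.123), without control mouse 1 (0.0675) or its library A (0.0786), and without library control 2B (0.0799), with values from -0.52 to -0.37. Pseudogenes share 53.1% of the 75-base windows of the main Hsp90aa1 transcript, and of these pseudogenes Gm12346 held 61 to 371 estimated counts per library.

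Hsp90ab1 was at 1702, 1485 and 1877 CPM in the VA-free mice and at 1549 and 1271 CPM in the control mice, with VA-free mouse 2 below control mouse 1. The log2 fold change was 0.26 (SE 0.16, adjusted p = 0.230, edgeR). It was 0.70 with the length trend removed (adjusted p = 0.0166), which is 0.52 above the median of all genes, and -0.11 with effective transcript length as an offset (adjusted p = 0.694). Both settings rest on the estimated transcript shares given below. These shares gave Hsp90ab1 a mean length of 1552 bases, beside 2520 bases for its full-length transcript. Over the libraries Hsp90ab1 followed Hspa1b (Pearson r = 0.99) and Hspa1a (r = 0.96) and not Hsp90aa1 (r = -0.52), as a description.

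The annotated transcripts that held the HSP90 counts differed between libraries. The full-length Hsp90ab1 transcript of 2520 bases took 83.7% to 84.4% of the gene's counts in the VA-free libraries but 63.4%, 54.5%, 92.7% and 62.4% in control 1A, 1B, 2A and 2B. The remainder lay mostly on 4 short annotated transcripts that cover the 5′ part of the gene, among them a nonsense-mediated decay form of 703 bases with 9.45% to 10.7% in the VA-free libraries and 4.32% to 23.7% in control. Library control 2A was thus above the VA-free libraries and its partner 2B below them. For Hsp90aa1, short 5′ transcripts held 51.1% to 52.9% in the VA-free libraries and 54.3% to 66.4% in control, and the protein-coding form of 2852 bases held 8.91% to 12.2% against 2.28% to 4.68%. No test was made on transcript shares, which are estimates of the pseudo-alignment.

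**Figure D3:**
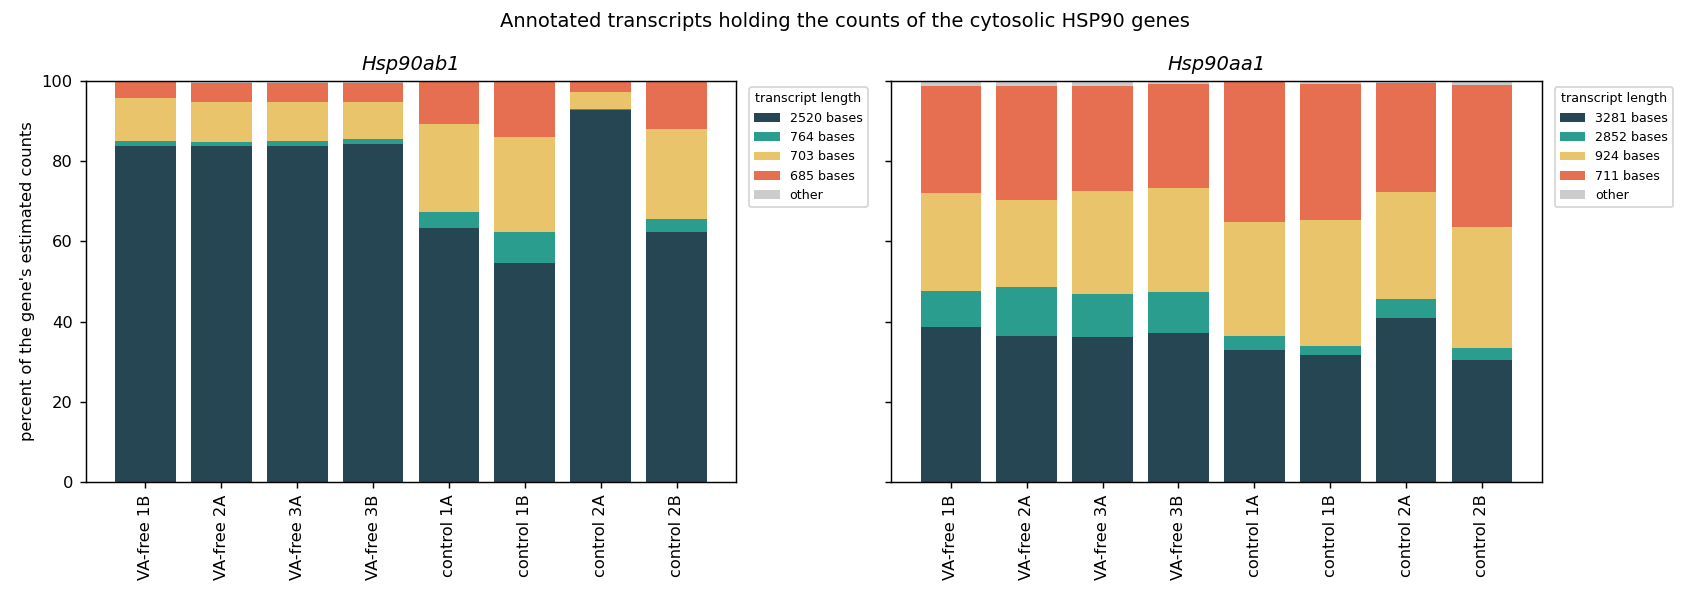
Share of the estimated counts of Hsp90ab1 (left) and Hsp90aa1 (right) held by each annotated transcript, in percent, for the 8 libraries; colors give the transcript length in bases. The Hsp90ab1 bars are alike in the VA-free libraries (83.7% to 84.4% full length) and range from 54.5% to 92.7% in the control libraries.

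Of the 10 genes, Hspe1 had the lowest adjusted p. Hspe1 (HSP10; chromosome 1, plus strand, 55088132 to 55091307) encodes the lid of the mitochondrial folding chamber and is transcribed away from its partner Hspd1 (HSP60; minus strand, 55077835 to 55088243), with which it shares 112 exonic bases, where reads of the pair cannot be told apart without the strand. Hspe1 was at 39.7, 36.2 and 39.6 CPM in the VA-free mice and at 74.1 and 64.7 CPM in the control mice. The highest VA-free library (42.3 CPM) was below the lowest control library (53.8 CPM, control 2B).

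Hspe1 was 1.80-fold higher in control (log2 fold change -0.85, SE 0.12, adjusted p = 0.00174, edgeR). It passed the threshold under 25 of the 26 alternatives, the leave-outs of every mouse and library included. The exception was the removal of the length trend, where the value was -0.12 (adjusted p = 0.471); Hspe1 is the shortest of the 10 genes, with a main transcript of 774 bases. On the TPM scale it was -0.40 (adjusted p = 0.0170, limma) against a median of 0.192 over all genes.

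Hspd1, which forms the chamber itself, had values on the other side. It was at 204, 201 and 208 CPM in the VA-free mice and at 174 and 172 CPM in the control mice. All VA-free libraries (200 to 208 CPM) were above all control libraries (156 to 181 CPM), yet the log2 fold change of 0.24 (SE 0.10, adjusted p = 0.104, edgeR) did not pass. Transcripts of other genes share 33.7% of the 75-base windows of Hspd1, all of them pseudogenes, and 29.1% of those of Hspe1, where AC117239.2 shares the most. The pseudogene Hspd1-ps3 held at most 21 and AC117239.2 at most 12 estimated counts per library. Hspd1 passed with the length trend removed (0.40, adjusted p = 0.0238) and on the TPM scale (0.52, adjusted p = 0.00324, limma). Relative to the median of all genes these values were 0.22 and 0.33, or 0.17 on the TPM scale with pseudocount 0.1. The main value of 0.24 stood beside a median of 0.003.

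Hspd1 and Hspe1 hold the same 30 bases with heat shock units, shown above. Over the 8 libraries of both diets the Pearson r of their levels was -0.80 (description), which includes the difference between the diets. In control 1A, 1B, 2A and 2B, Hspd1 was at 179, 156, 181 and 176 CPM and Hspe1 at 73.8, 69.1, 81.7 and 53.8 CPM. The control libraries alone thus did not show opposite courses. The ratio of Hspd1 to Hspe1 in TPM was 1.65, 1.79, 1.51 and 1.85 in the VA-free libraries and 0.874, 0.831, 0.763 and 1.13 in the control libraries. The VA-free libraries were all above the control ones, the closest pair being VA-free 3A (1.51) and control 2B (1.13). The libraries of control mouse 2 were themselves apart, at 0.763 (A) and 1.13 (B). Per mouse the ratio was 1.71 ± 0.0721 (SD, n = 3) and 0.899 ± 0.0660 (SD, n = 2; exact permutation p = 0.2). The main transcripts have 2423 (Hspd1) and 774 bases (Hspe1), and the part of the length trend in this ratio was not tested.

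Hspb1 (HSP27; chromosome 5, plus strand, 135887919 to 135889563), a small heat shock protein that holds unfolded proteins and binds actin, had the largest fall of the 10 and the widest gap between the libraries of control mouse 2. It was at 157, 137 and 193 CPM in the VA-free mice and at 510 and 209 CPM in the control mice. The libraries of control mouse 1 agreed (490 and 495 CPM), but those of control mouse 2 were at 94.1 (A) and 326 (B) CPM, the former below every VA-free library. Hspb1 was 2.21-fold higher in control (log2 fold change -1.15, SE 0.34, adjusted p = 0.0346, edgeR).

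The Hspb1 call depended on the animals kept. It was -0.37 (adjusted p = 0.186) without control mouse 1, -1.65 (adjusted p = 0.00166) without control mouse 2, -1.36 (adjusted p = 0.00318) without library control 2A and -0.88 (adjusted p = 0.375) without control 2B. Without VA-free mouse 1, 2 or 3 it was between -1.29 and -1.04, with adjusted p of 0.101, 0.0944 and 0.0520. With the length trend removed it was -0.42 (adjusted p = 0.387), and on the TPM scale -0.60 (adjusted p = 0.180, limma). The pseudogene Hsp25-ps1 and the gene Gm9817 share up to 57.7% of the 75-base windows of Hspb1, and Hsp25-ps1 held between 0 (VA-free 1B) and 2343 (control 1B) estimated counts. Adding the counts of both to Hspb1 gave -1.18 (adjusted p = 0.0384), an alternative chosen after the data were seen.

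As a search for genes of like pattern, each heat shock gene was compared with 9599 genes of at least 10 CPM over the 8 libraries (Pearson r on log2(CPM + 1), a description with no test, since libraries share mice and diets). Hspa1a was closest to Cry1 (r = 0.965), Hgs (0.961) and Crnkl1 (0.947), and Hspa1b to Cry1 (0.965), Slc27a1 (0.958) and Hgs (0.948). Hspa8 was closest to Bphl (0.988), Dnajb9 (0.987) and Snhg11 (0.986). Hspa5 was closest to Clic4 (0.982), Pcmtd2 (0.980) and Herpud1 (0.977). Dnajb9, an ER J-domain protein, and Herpud1, a component of ER-associated degradation, are known targets of the unfolded protein response. A shared cause of these patterns was not tested. Library control 2A stood above its partner 2B for Hspa8 (7901 and 4561 CPM) and Hspa5 (4485 and 2675 CPM), and such a gap enters these r values. Hspe1 was closest to Mrln (0.998), Naa38 (0.997) and Psmg2 (0.996), which had log2 fold changes of -1.01, -1.23 and -0.74. Hspd1 was close to Slc25a36 (0.987) and Usp42 (0.981), and Hspb1 to Fibp (0.989), Adi1 (0.989) and Tgfb1 (0.984). Dnajb1 was closest to Hdac1 (0.975), Trp53rka (0.975) and Mtfr1 (0.971). Of the HSP90 genes, Hsp90aa1 was closest to Fam32a (0.986), Atg101 (0.974) and 2610044O15Rik8 (0.974), and Hsp90ab1 to Kctd7 (0.952), Slc27a1 (0.944) and Slc10a3 (0.942).

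The wider chaperone network was read from 10 lists of 129 genes, of which 128 were tested. On the VA-free diet 25 were higher, 33 were lower and 70 did not pass, with a median log2 fold change of -0.07. That is 45.3% past the threshold, beside 41.4% of all genes (18.9% higher and 22.5% lower). By list this share was 72.7% for HSP70 relatives and 60.0% for their exchange factors and regulators. It was 60.0% for the mitochondrial list, 59.3% for the ER list and 42.9% for the chaperonin TRiC and prefoldin. J-domain proteins and heat shock factors had 33.3% each, and 4 of 8 small heat shock proteins passed. The difference of any list from all genes was not tested.

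**Figure D4:**
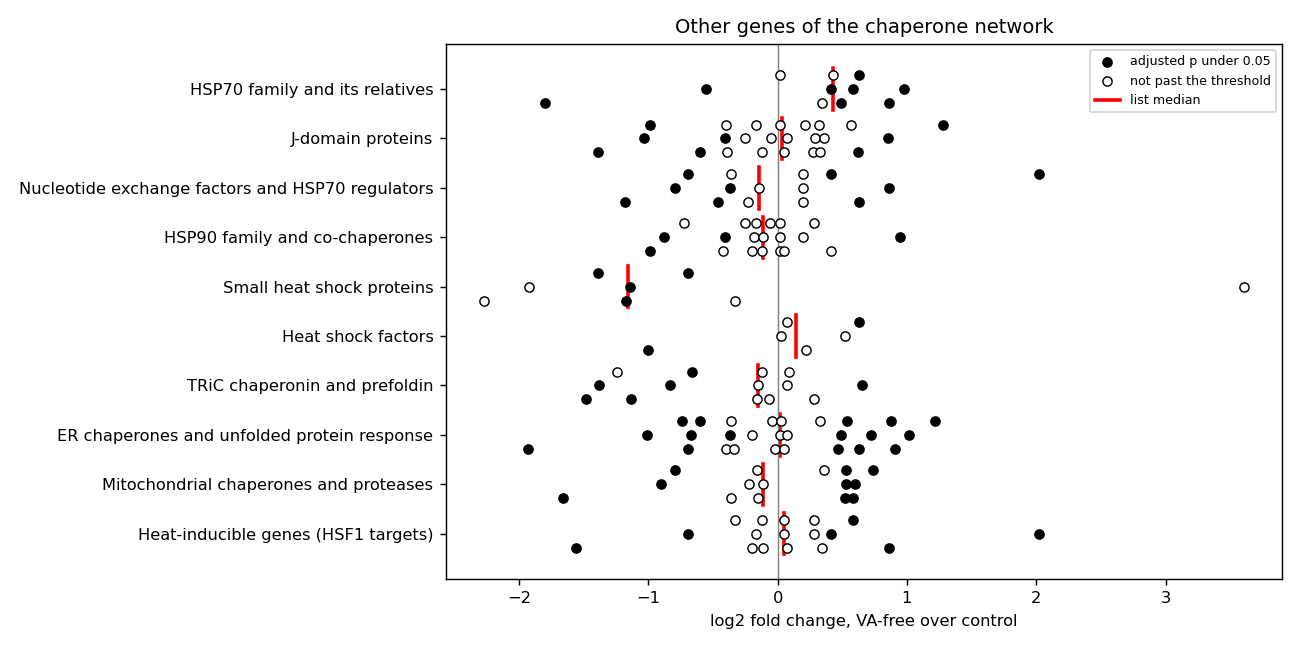
Log2 fold change, VA-free over control, of each tested gene in 10 lists of the chaperone network (filled: adjusted p under 0.05; open: not past the threshold; red line: list median). HSP70 relatives lie mostly above 0 (median 0.43) and small heat shock proteins mostly below 0 (median -1.15), and Bag3 at 2.02 is the highest filled point.

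Among HSP70 relatives 6 of 11 were higher and 2 lower, with a median log2 fold change of 0.43. Hspa9 (mortalin), the mitochondrial HSP70, was at 515, 503 and 509 CPM in the VA-free mice and at 334 and 345 CPM in the control mice (log2 fold change 0.58, SE 0.11, adjusted p = 0.00531, edgeR). Within the same organelle, Hspd1 had higher values too but did not pass (adjusted p = 0.104, edgeR), and Hspe1 was lower. With the length trend removed Hspe1 was at -0.12 (adjusted p = 0.471, edgeR). Hsph1 (HSP110), an inducible exchange factor, was higher (0.86, adjusted p = 0.0225), with VA-free mouse 2 at 131 CPM, and did not pass without library control 2B (0.63, adjusted p = 0.181), VA-free mouse 1 (0.85, adjusted p = 0.0656), control mouse 1 (0.81, adjusted p = 0.0852) or control mouse 2 (0.91, adjusted p = 0.0638). Hspa12a was higher (0.98, adjusted p = 0.00117). Hspa12b, which is known from endothelium, fell to 6.54 ± 0.176 CPM (SD, n = 3) from 22.7 ± 6.94 (SD, n = 2), a log2 fold change of -1.80 (adjusted p = 0.00101), beside the endothelial sums given above.

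The exchange factors and regulators of HSP70 held the strongest rise of the network. Bag3, which links HSP70 to small heat shock proteins and to autophagy of damaged muscle proteins, was at 502, 644 and 774 CPM in the VA-free mice and at 152 and 164 CPM in the control mice. The lowest VA-free library (491 CPM) was above the highest control library (194 CPM). Bag3 was 4.06-fold higher on the VA-free diet (log2 fold change 2.02, SE 0.20, adjusted p = 0.00055, edgeR) and passed under all 26 alternatives, with values from 1.85 to 2.44. Bag1 (-1.18, adjusted p = 0.000829) and the HSP70-associated ubiquitin ligase Stub1 (CHIP; -0.69, adjusted p = 0.00233) fell. The Stub1 call was lost with the length trend removed (-0.16, adjusted p = 0.279) and on the TPM scale (-0.26, adjusted p = 0.0604, limma). Over this list 4 of 15 were higher and 5 lower.

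Of 6 heat shock factor genes, Hsf1, the main activator of the inducible genes, was higher, at 144, 152 and 143 CPM in the VA-free mice against 91.2 and 98.4 CPM (log2 fold change 0.63, SE 0.11, adjusted p = 0.00401, edgeR), and did not pass without library control 2B (0.47, adjusted p = 0.111). Its binding inhibitor Hsbp1 was lower, at 104, 107 and 106 CPM against 206 and 218 CPM (-1.0, SE 0.10, adjusted p = 0.000575). Hsbp1 kept its sign but did not pass with the length trend removed (-0.30, adjusted p = 0.0668). Hsf2 (0.22, adjusted p = 0.546), Hsf4 (0.03, adjusted p = 0.970), Hsf5 (0.07, adjusted p = 0.951) and Hsf3 (0.52, adjusted p = 0.778) did not pass, the last 3 at levels under 3 CPM in every mouse.

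Of the 17 heat-inducible genes 4 were higher, 2 lower and 11 not past the threshold, with a median of 0.05. The share past the threshold, 35.3%, was near the 41.4% of all genes. The 4 higher ones included Bag3, Hsph1 and Hspa9, the last of which also counts with the HSP70 relatives and the mitochondrial list. Membership comes from the list used, and whether Hspa9 responds to heat in these cells was not tested. The polyubiquitin gene Ubb fell from 7406 and 12502 CPM in the control mice to 3037, 3372 and 3726 CPM in the VA-free mice (-1.56, adjusted p = 0.00201), with library control 2A at 21845 CPM. Without that library the value was -0.88 (adjusted p = 0.00836). Cryab (alphaB-crystallin), which counts with this list and with the small heat shock proteins, was lower (-0.69, adjusted p = 0.0242) but stood at 0.05 with the length trend removed, and did not pass without VA-free mouse 1 or 2, control mouse 2 or library control 2B (values from -0.84 to -0.51).

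Small heat shock proteins had 4 of 8 lower and none higher, with a median of -1.15; the others did not pass, 3 of them at under 1 CPM. Hspb6 fell to 8.43 ± 1.20 CPM (SD, n = 3) from 22.1 ± 1.66 (SD, n = 2; -1.39, adjusted p = 0.00132), and Hspb8, a partner of Bag3, was at -0.33 (adjusted p = 0.427). Hspb6 and Cryab are known from smooth and striated muscle, whose marker sums are given above.

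J-domain proteins had 3 of 24 higher and 5 lower (median 0.03). Dnajc13 was the largest rise (1.28, adjusted p = 0.00159) and Dnajc19, a mitochondrial import subunit, the largest fall (-1.39, adjusted p = 0.000426), while the abundant Dnaja1 (0.07, adjusted p = 0.786) and Dnajb4 (-0.12, adjusted p = 0.502) did not pass. HSP90 relatives and co-chaperones had 1 of 20 higher, Unc45a (0.95, adjusted p = 0.00708; 1.19, adjusted p = 0.0728, without library control 2B), and 3 lower, with Hsp90b1 (0.02), Trap1 (-0.11) and Fkbp4 (0.05) not past the threshold. In that list 20% passed, beside 41.4% of all genes.

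Of the cytosolic chaperonin TRiC and prefoldin, 1 of 14 was higher, Cct3 (0.65, adjusted p = 0.00403), and 5 were lower, Pfdn4 (-1.48, adjusted p = 0.00103) the most, while Cct5 (-0.12) and Cct7 (-0.16) did not pass. The ER list held 9 higher and 7 lower of 27 (median 0.02), with P4hb (0.47, adjusted p = 0.0229) and Syvn1 (1.22, adjusted p = 0.0104) higher, Sdf2l1 (-1.93, adjusted p = 0.00126) lower and Ppp1r15a (-0.20, adjusted p = 0.361) not past the threshold. P4hb did not pass without VA-free mouse 2 or 3, control mouse 2 or a library of it (0.31 to 0.65), nor Syvn1 without library control 1A or 2B (0.99 and 1.66), and without control mouse 2 Syvn1 was at 0.81. Hspa5 stood between them at -0.19. The mitochondrial list held 6 higher and 3 lower of 15, with the protease subunit Afg3l2 (0.74, adjusted p = 0.00192) and Hspa9 higher and the iron-sulfur co-chaperone Hscb (-1.66, adjusted p = 0.000918) lower.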

How the data were processed

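RNA was measured in sorted MuSCs of 3 VA-free and 2 control mice in 8 libraries (SMART-Seq v4, Nextera XT, 75 bp reads). The authors pseudo-aligned reads to transcripts with kallisto 0.46.2 (GRCm38, per the submitters' processing notes), and deposited estimated counts and TPM per transcript. The deposited TPM values are scaled by effective length to the same total, so they keep no depth. Estimated counts were added per gene (Ensembl 96 symbols) and per mouse and rounded. Between 0.647% and 0.756% of a library's counts lay on transcripts without a gene and were left out. Technical replicates were compared first, and no pair of libraries of the same diet agreed within counting noise (chi-square per degree of freedom of at least 11.8).

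The diet comparison used the quasi-likelihood test of edgeR 4.0.16 under R 4.3.3 (TMM factors, its expression filter, threshold 0.05 on the Benjamini-Hochberg adjusted p). The SE is the log2 fold change divided by the square root of F. DESeq2 1.42.0, limma 3.58.1 (voom, and log2 of TPM plus 1 or 0.1), other normalizations, filters, length corrections, treatments of technical replicates, a replicate block and leave-outs were alternatives, 26 in all. edgeR, DESeq2 and limma-voom were tested on simulated data.

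The text names the 10 genes, from each list the 2 most abundant genes and the largest rise and fall past the threshold at 1 CPM or more, all tested heat shock factors, the 3 closest patterns per gene, and Pax7. A few genes that this rule names are not reported here, though the list counts include them. The genes and lists were chosen with earlier results of these data known. Mouse replicate numbers come from the labels.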

Additional observations from a re-analysis of the deposited data

Results flagged for a closer look

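Hspa5 in library VA-free 1B was at 2481 CPM, below the other 3 VA-free libraries (3063 to 3152 CPM), a gap of 0.868 of the range of the 4 libraries. It was the only one of 20 sets of 4 libraries (10 genes, 2 diets) with a gap above Dixon's critical value at the 95% level for 4 samples. Among independent samples chance alone would mark about 1 in 20. The libraries are not independent, since VA-free 3A and 3B come from the same mouse and each control mouse gave A and B. The gap is therefore a flag and no test.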

How the results depend on the processing

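Over the 26 alternatives, the 10 heat shock genes gave 259 values, of which 201 kept direction and side of the threshold, 31 lost a call, 18 gained one and 9 crossed 0. Hspe1 lost its call in 1 alternative, and Hsp90aa1, Hspb1 and Dnajb1 in 10 each besides any crossing. The number of heat shock genes past the threshold, 4, rose to 6 with no expression filter and 5 with DESeq2, fell to 2 with 1 library per mouse and was 1 to 4 when a mouse or library was left out (1 without VA-free mouse 1 or control 2B). Over all genes the leave-outs gave 4291 to 7740 calls and over the chaperone lists 32 to 61, both lowest without control 2B. The cause of these changes was not tested.

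Mice of the same number did not deviate together (correlation of deviations -0.0654 for number 1 and 0.0103 for number 2). The deviations of the 2 control mice from their mean mirror each other, so these values cannot decide whether the mice were paired. With the replicate block 5242 genes, 40 chaperone list genes and 4 heat shock genes passed, here Hspa1a (0.80, adjusted p = 0.0339), Hspa1b (0.90, adjusted p = 0.0189), Hspe1 and Hspb1.

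Values that crossed 0, with the cause not tested, were as follows. The TPM and length trend settings raise the median of all genes (0.192 and 0.354 for TPM, 0.181 for the length trend), so many of their crossings are no turn relative to other genes. On the TPM scale, with either pseudocount, they were Hspa5 (0.29), Hspa8 (0.27), Dnajb1 (0.07), Dnajb4 (0.30), Trap1 (0.34), Hspb8 (0.07), Cct5 (0.36), Cct7 (0.29) and Ppp1r15a (0.25), of which Dnajb1 and Hspb8 lay below the median with both pseudocounts and all but Cct5, which lay at it, below that of pseudocount 0.1. With the length trend removed they were Hspa8 (0.27), Hsp90aa1 (0.21), Trap1 (0.01), Cryab (0.05), Hsf5 (-0.24), Cct5 (0.21) and Cct7 (0.17), of which Hsp90aa1, Cct5 and Cct7 lay within 0.03 of the median and Trap1, Cryab and Hsf5 below it. With the length offset they were Hsp90ab1 (-0.11) and Hsp90b1 (-0.31), with a mean of at least 10 CPM Dnaja1 (-0.01), Hsp90b1 (-0.07) and Fkbp4 (-0.04), and with no filter Hsp90b1 (-0.01). With 1 library per mouse they were Hsp90b1 (-0.18), Fkbp4 (-0.03), Hsf3 (-0.13) and Hsf5 (-0.53), with 8 libraries Hsf5 (-0.12), and with the replicate block Hsp90b1 (-0.09). Over the leave-outs Dnaja1 ranged from -0.19 to 0.39, Hsp90b1 from -0.24 to 0.31, Trap1 from -0.22 to 0.01, Hspb8 from -0.62 to 0.02, Hsf3 from -0.44 to 5.94, Hsf4 from -0.65 to 1.34, Hsf5 from -0.54 to 1.13 and Ppp1r15a from -0.39 to 0.01. TPM carry no depth, and Hsf3, Hsf4 and Hsf5 rest on few counts.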
